A study of Mus musculus with 11 samples.

Results

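The genes described here encode surface proteins of T cells and the killing enzymes of cytotoxic lymphocytes. They are Cd3e, Cd3d, Cd3g, Cd8a, Cd2, Gzma and Gzmb. Each was found by its symbol among probe sets (groups of array probes for 1 transcript) that the platform annotation paired with a single gene, and each had 1 such probe set. The list makes up 7 of the 22180 genes measured. Levels are given on the log2 scale, where 1 unit is a change of 2-fold.

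Expression was measured on Affymetrix arrays, 1 biotin-labelled RNA sample per array, in stomach of adult C57Bl/6 mice. Whole stomach came from 4 groups given daily injections into the peritoneum. The vehicle group received sunflower oil (2 arrays), the tamoxifen group 5 mg tamoxifen per 20 g mouse for 3 days (2 arrays), and the rapamycin group 0.6 mg rapamycin per 20 g mouse for 10 days (3 arrays). The combination group received both drugs at those doses and times (2 arrays). Tamoxifen at high dose injures the acid-secreting parietal cells of the stomach, and rapamycin inhibits the growth-regulating kinase mTORC1. A further array held isolated parietal cells, and another held the stomach cells that remained after parietal cells had been removed. According to the labels the whole-stomach samples were biological replicates, with no statement that each is a separate mouse, so p-values measure the spread between these samples, which may in part be technical.

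The T cell receptor signals through the CD3 chains, which carry the recognition of an antigen into the cell. CD8 binds MHC class I molecules and marks killer T cells, and CD2 is an adhesion receptor shared by T cells and natural killer cells. Granzymes are serine proteases stored in granules with perforin and released into target cells, and in the gut many T cells with this equipment sit within the epithelium. The granzyme B gene lies in a cluster with the chymases of mast cells, and granzyme B can also be made by cells other than lymphocytes.

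The promoters of both granzyme genes are shown because the arrays separated them: Gzma was dim everywhere, while Gzmb was high in the stomach cells without parietal cells. Each stretch runs from 250 bases before to 50 bases after the start of the gene, on the strand of the gene (RefSeq, assembly GRCm38.p6). Capitals mark matches to the motifs searched.
Gzma, chr13:113100932-113101231, minus strand: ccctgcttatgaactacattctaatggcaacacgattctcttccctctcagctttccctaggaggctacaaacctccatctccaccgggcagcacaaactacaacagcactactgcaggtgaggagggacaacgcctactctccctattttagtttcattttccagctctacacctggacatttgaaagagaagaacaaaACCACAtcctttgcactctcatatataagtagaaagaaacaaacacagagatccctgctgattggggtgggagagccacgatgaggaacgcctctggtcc
Gzmb, chr14:56262285-56262584, minus strand: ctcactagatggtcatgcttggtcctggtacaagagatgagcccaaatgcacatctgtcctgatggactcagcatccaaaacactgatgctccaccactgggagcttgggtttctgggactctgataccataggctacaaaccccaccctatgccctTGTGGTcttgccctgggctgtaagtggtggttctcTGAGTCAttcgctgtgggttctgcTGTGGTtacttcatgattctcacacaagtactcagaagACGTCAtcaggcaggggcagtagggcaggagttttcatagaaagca
The motif of AP-1 factors was searched as TGAGTCA on both strands. The Gzmb stretch held it at position -58 from the gene start, and 5.2% of 32851 promoters of this length held it. The RUNX motif was searched as TGTGGT on both strands, and 16.8% of the promoters held it. It lay at -93 and -34 in the Gzmb stretch, and at -50 in the Gzma stretch, where it reads on the opposite strand. The core of the CRE motif was searched as ACGTCA on both strands; the Gzmb stretch held it at 5, as did 7.51% of the promoters somewhere in their length. The GATA motif was searched as AGATAA and the E-box motif as CAGCTG on both strands. Neither of these last motifs was in these stretches, and 11.2% and 16.3% of the promoters held them. No 2 matches overlapped. Letters that match a motif show no binding.

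Among the chromosomal neighbours in the same assembly, Cd3g, Cd3d and Cd3e lay side by side on chromosome 9. Cd8a was next to Cd8b1 on chromosome 6 and Gzma next to Gzmk on chromosome 13, while Cd2 lay on chromosome 3.

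Vehicle replicate 2 and tamoxifen replicate 2 shared 7093 exactly equal values (17.2% of 41345 probe sets), whereas any other pair of whole-stomach arrays shared at most 58. The parietal and remaining-cell arrays shared 1918 equal values (4.64%). Cd3d was among the equal values of the first pair and Cd2 among those of the second. Results are therefore also given for each drug with this pair of whole-stomach arrays left out or fitted as a block where that moved them. The whole-stomach arrays had medians of 4.95 to 5.09 and the 2 cell fractions 3.67 and 3.68. The fractions were therefore compared with each other only, apart from the muscle and macrophage means given below.

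Tissue markers varied between the whole-stomach arrays. The mean over 11 squamous forestomach genes was 4.89 and 5.32 in vehicle, 9.94 and 5.04 in tamoxifen, 9.90, 8.72 and 5.59 in rapamycin, and 9.14 and 9.49 in the combination. Parietal markers fell with tamoxifen averaged over rapamycin in 9 of 10 genes (Atp4a and Atp4b, the proton pump subunits, by 0.79 ± 0.14 and 0.91 ± 0.15, SE; limma adjusted p = 0.0131 and 0.00937). Limma called 5.85% of all genes in that contrast. The part of these tissue differences in the values of the T cell genes was not tested, except where a fit with the squamous mean is given. In whole stomach, fewer cells of a type and less RNA per cell cannot be told apart.

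All 7 genes were dim in whole stomach, between 2.59 and 5.10 on any array, below the median gene mean of 5.71. As a gauge of dim signal, 1088 olfactory receptor genes had array medians of 2.73 to 2.88 and 95th percentiles of 4.68 to 4.93. This gauge was chosen after the values were seen, and probe sets differ in their own brightness, so it orders no genes. Cd2 passed the 95th percentile on 4 arrays and Cd3e on 1, and the other 5 genes on none of the 9. Differences in such dim signals can understate changes in RNA or arise from background, and these were not told apart.

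**Figure D1:**
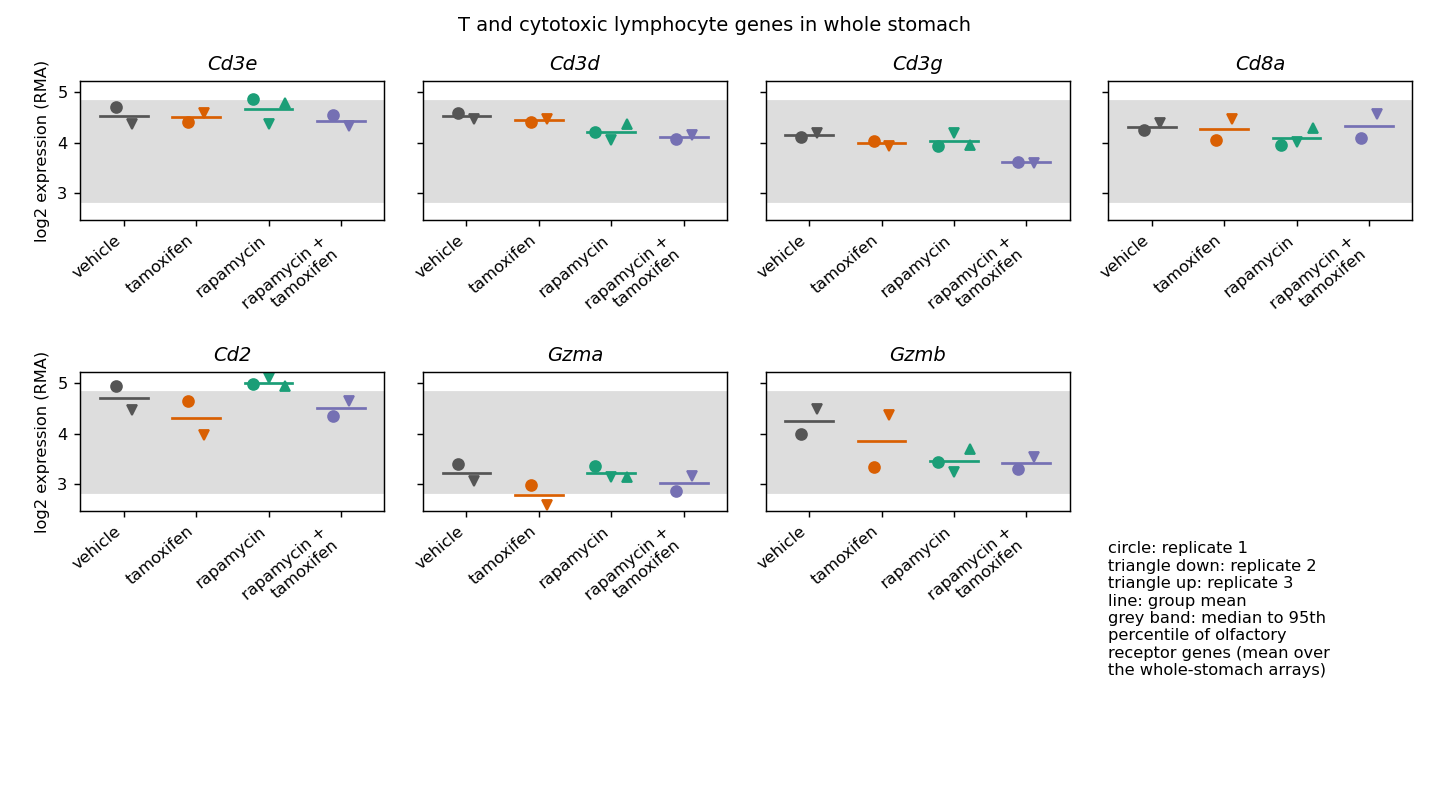
Log2 level of each of the 7 genes on each of the 9 whole-stomach arrays, by treatment group. Markers show replicates 1, 2 and 3, lines the group means, and the grey band the median to the 95th percentile of olfactory receptor genes. All points lie between 2.59 and 5.10, and the 3 rapamycin arrays of Gzmb (3.24 to 3.70) sit below both vehicle arrays (3.99 and 4.50).

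Cd3e, which encodes a signalling chain of the receptor, stood at 4.70 and 4.37 in vehicle, 4.42 and 4.59 in tamoxifen, 4.86, 4.38 and 4.79 in rapamycin, and 4.55 and 4.33 in the combination. Every group overlapped every other. Group means ran from 4.68 ± 0.26 (SD, n = 3) in rapamycin through 4.54 ± 0.23 in vehicle (n = 2) and 4.51 ± 0.12 in tamoxifen (n = 2) to 4.44 ± 0.16 in the combination (n = 2), and no neighbours in that order differed beyond their spread.

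Cd3d, for a partner chain, stood at 4.59 and 4.48 in vehicle, 4.42 and 4.48 in tamoxifen, 4.21, 4.05 and 4.37 in rapamycin, and 4.08 and 4.16 in the combination. All 5 arrays with rapamycin were below all 4 without it. The share of all genes split this way was not counted. Rapamycin arrays lay wholly below vehicle in 14.3% of all genes, and combination arrays wholly below tamoxifen in 20.3%. The value of 4.48 in vehicle 2 and tamoxifen 2 is among the equal values of that pair. The means were 4.54 ± 0.07 in vehicle, 4.45 ± 0.05 in tamoxifen, 4.21 ± 0.16 in rapamycin and 4.12 ± 0.06 in the combination. Averaged over tamoxifen, the rapamycin difference was -0.33 ± 0.10 (SE; limma adjusted p = 0.306 over all genes), so it did not pass the test.

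Cd3g, for the third CD3 chain, stood at 4.12 and 4.20 in vehicle, 4.04 and 3.94 in tamoxifen, 3.94, 4.20 and 3.95 in rapamycin, and 3.62 and 3.60 in the combination. The combination arrays were the lowest of the 9, clear of the other 3 groups. How many of all genes had the combination lowest of the 9 was not counted. Over all genes, combination arrays lay wholly below rapamycin in 20.4% and wholly below tamoxifen in 20.3%. Means were 4.16 ± 0.06, 3.99 ± 0.07, 4.03 ± 0.15 and 3.61 ± 0.01 in that order of groups, and vehicle, rapamycin and tamoxifen overlapped as neighbours in the order of levels. The difference of the combination from rapamycin was -0.42 ± 0.13 (SE; limma adjusted p = 0.167) and from tamoxifen -0.38 ± 0.14 (adjusted p = 0.814), and neither passed.

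Cd8a, for the alpha chain of the killer T cell co-receptor, stood at 4.25 and 4.39 in vehicle, 4.05 and 4.48 in tamoxifen, 3.95, 4.01 and 4.30 in rapamycin, and 4.09 and 4.58 in the combination. All groups overlapped. The group means, 4.32 ± 0.10, 4.27 ± 0.30, 4.09 ± 0.18 and 4.33 ± 0.35, did not differ beyond the spread of their arrays.

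Cd2, for the adhesion receptor, stood at 4.95 and 4.47 in vehicle, 4.66 and 3.98 in tamoxifen, 4.98, 5.10 and 4.95 in rapamycin, and 4.36 and 4.65 in the combination. The combination arrays lay below all rapamycin arrays, as in 20.4% of all genes, while tamoxifen and vehicle overlapped. Means were 5.01 ± 0.08 in rapamycin, 4.71 ± 0.34 in vehicle, 4.50 ± 0.20 in the combination and 4.32 ± 0.48 in tamoxifen. The tamoxifen difference averaged over rapamycin was -0.45 ± 0.17 (SE; limma adjusted p = 0.183) and did not pass. It passed at -0.45 ± 0.09 (adjusted p = 0.0163) with the pair of arrays that share values as a block, and at -0.62 ± 0.15 (adjusted p = 0.0486) without tamoxifen replicate 1. With that pair left out it was -0.40 (adjusted p = 0.0915).

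Gzma, for granzyme A, a trypsin-like granule protease, stood at 3.40 and 3.06 in vehicle, 2.98 and 2.59 in tamoxifen, 3.36, 3.15 and 3.15 in rapamycin, and 2.87 and 3.17 in the combination. Both tamoxifen arrays were below both vehicle arrays, as in 13.9% of all genes, and the combination overlapped rapamycin. Means were 3.23 ± 0.24 in vehicle, 3.22 ± 0.12 in rapamycin, 3.02 ± 0.21 in the combination and 2.78 ± 0.27 in tamoxifen. Gzma differed between tamoxifen and vehicle by -0.44 ± 0.19 (SE; limma adjusted p = 0.449), which did not pass.

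Gzmb, for granzyme B, which cuts after aspartate and activates caspases in the target cell, stood at 3.99 and 4.50 in vehicle, 3.34 and 4.37 in tamoxifen, 3.43, 3.24 and 3.70 in rapamycin, and 3.30 and 3.54 in the combination. The rapamycin arrays were below both vehicle arrays, as in 14.3% of all genes, and the tamoxifen arrays lay far apart. In Cd2, Gzma and Gzmb alike, neighbours in the order of group means overlapped. Means were 4.24 ± 0.36 in vehicle, 3.86 ± 0.73 in tamoxifen, 3.46 ± 0.23 in rapamycin and 3.42 ± 0.17 in the combination. The rapamycin difference from vehicle was -0.78 ± 0.30 (SE; limma adjusted p = 0.521), the largest of the 49 differences fitted for the 7 genes, and it did not pass. It was -0.40 ± 0.20 with the shared-value pair as a block, -0.53 without that pair and -0.33 ± 0.25 with the squamous mean in the fit.

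Gzmb was set beside mast cell genes because genes of mast cell chymases lie in its chromosomal cluster. The mean over 11 mast cell genes was 6.76 and 7.15 in vehicle, 5.55 and 6.10 in tamoxifen, 5.50, 5.49 and 5.61 in rapamycin, and 5.67 and 5.64 in the combination. The 3 arrays with the highest Gzmb (vehicle 2, tamoxifen 2 and vehicle 1) were also the 3 highest in the mast mean. The same 3 arrays were the 3 lowest in the squamous forestomach mean (4.89, 5.04 and 5.32). Rapamycin 3, next in Gzmb (3.70), had the next lowest squamous mean (5.59) and a rank of 6 from the highest in the mast mean. Mast cell genes had a median change of -1.22 with rapamycin against vehicle. Limma called 0.0496% of all genes there, and 3 of 11 mast cell genes fell past the test. These were Mcpt1 (by 4.46 ± 0.39, adjusted p = 0.00758) and Mcpt2 (by 3.57 ± 0.41, adjusted p = 0.0316), the chymases of mucosal mast cells, and Tpsb2, a tryptase (by 1.37 ± 0.14, adjusted p = 0.018). Without vehicle replicate 2 none of the 3 passed, nor without the shared-value pair, though leaving out any 1 array kept the change of Mcpt1 between -4.83 and -4.05. Mcpt2 passed in 3 of 9 fits that left out 1 array (vehicle 1, tamoxifen 1 or tamoxifen 2) and ran from -4.23 to -2.91. Tpsb2 passed in 5, being lost without either vehicle array, rapamycin 1 or rapamycin 3, and ran from -1.45 to -1.31. Limma called 1.72% of all genes for tamoxifen alone, where the mast cell genes had a median of -0.74 and all 11 were negative. Among them 2 fell past the test: Mcpt1 (by 2.92 ± 0.43) and Kit, the stem cell factor receptor that pacemaker cells of the gut also carry (by 1.34 ± 0.20, adjusted p = 0.0169 for each). Each passed in 7 of 9 fits that left out 1 array, Mcpt1 being lost without vehicle 2 or tamoxifen 1 (range -3.29 to -2.55) and Kit without vehicle 1 or tamoxifen 1 (-1.57 to -1.11). Without the shared-value pair Kit passed and Mcpt1 did not. Kit was high both in isolated parietal cells (8.09) and in the remaining stomach cells (7.71), unlike Mcpt1 (2.86 and 10.13). The part of parietal cells in the fall of Kit was not tested. When tamoxifen was added to rapamycin, 7 of the 11 mast cell genes had a positive and 4 a negative difference, with a median of 0.26. Kit (-1.76) was the 1 that fell past the test (limma called 2.45% of all genes). The interaction median was 1.07, and 7 had an unadjusted limma p under 0.05 (2.83% of all genes), but 0 passed. The averaged contrast joins these unlike settings. With tamoxifen averaged over rapamycin, Kit (by 1.55 ± 0.13, adjusted p = 0.000515) and Gata2, a transcription factor of mast cells (by 0.53 ± 0.13, adjusted p = 0.0471), fell (5.85% of all genes were called). Kit passed in all 9 such fits and Gata2 in 1 (without vehicle 2; range -0.64 to -0.42). The part of mast cells in the Gzmb values was not tested. The mean of 10 genes of leukocytes in general stayed between 5.69 and 6.31 on the 9 arrays.

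In the first comparison, whether tamoxifen alone moved the genes, all 7 had a negative difference from vehicle and 0 of 7 passed the limma test at an adjusted p of 0.05, where 1.72% of all genes passed. At an unadjusted p under 0.05, 1 passed (Gzma; 10.9% of all genes). Tamoxifen arrays lay wholly below vehicle in Cd3g and Gzma, as in 13.9% of all genes. The median over the 7 genes was -0.17, against -0.02 over all genes. Taken pair by pair, replicate 1 and replicate 2 (the pair that shares values) gave -0.29 and 0.22 for Cd3e, -0.65 and -0.12 for Gzmb and -0.42 and -0.47 for Gzma.

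When tamoxifen was added to rapamycin, 6 of the 7 genes had a negative difference and Cd8a a positive one. Again 0 of 7 passed (2.45% of all genes did), with Cd3g and Cd2 at an unadjusted p under 0.05 (13.9% of all genes). The same 2 genes were wholly below the rapamycin arrays, as were 20.4% of all genes. The Cd2 difference was -0.51 ± 0.22 (SE; limma adjusted p = 0.356), and it passed with the shared-value pair as a block (-0.51 ± 0.12, adjusted p = 0.0481). The median was -0.20, against -0.01 over all genes.

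Averaged over rapamycin, tamoxifen gave 0 of 7 calls where 5.85% of all genes were called, and a median of -0.21 against -0.02. Cd3g (-0.29 ± 0.10, adjusted p = 0.131), Cd2 and Gzma (-0.32 ± 0.13, adjusted p = 0.242) had an unadjusted limma p under 0.05, as did 17.6% of all genes. The 95% intervals ran from -0.51 to -0.08 for Cd3g, from -0.44 to 0.17 for Cd3e, from -0.31 to 0.13 for Cd3d, from -0.24 to 0.43 for Cd8a and from -0.71 to 0.28 for Gzmb. Each of these intervals lay within 1 log2 unit of no change.

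Rapamycin against vehicle gave 0 of 7 calls (0.0496% of all genes). Cd3d and Gzmb had an unadjusted p under 0.05 (8.91% of all genes) and rapamycin arrays wholly below vehicle (14.3% of all genes). The Cd3d difference was -0.33 ± 0.13 (SE; limma adjusted p = 0.537). The median of the 7 was -0.13, against -0.02 over all genes.

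In stomachs given tamoxifen, the addition of rapamycin gave 0 of 7 calls, as limma called 0% of all genes. Cd3d (-0.33 ± 0.15) and Cd3g had an unadjusted p under 0.05 (5.67% of all genes) and lay wholly below tamoxifen alone (20.3% of all genes). Averaged over tamoxifen, rapamycin gave 0 of 7 calls (0.0496% of all genes) and a median of -0.09. Here Cd3d, Cd3g (-0.26 ± 0.10, adjusted p = 0.361) and Gzmb (-0.61 ± 0.22, adjusted p = 0.352) had an unadjusted limma p under 0.05, as did 13.1% of all genes. The Gzmb value was -0.22 with the shared-value pair as a block, -0.22 without that pair and -0.24 with the squamous mean in the fit. Cd2 had a difference of 0.24 ± 0.17, with a 95% interval from -0.13 to 0.62, and it turned to -0.05 with the pair as a block or left out and was 0.03 with the squamous mean in the fit.

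Whether either drug acted differently in the presence of the other was tested by the interaction. It gave 0 of 7 calls at the adjusted threshold, with limma calling 0% of all genes, and none of the 7 at an unadjusted p under 0.05 (2.83% of all genes). The median was -0.01. In all, 0 of 49 differences passed, 13 had an unadjusted p under 0.05, and the lowest adjusted p was 0.131. Differences ran from -0.78 to 0.35, and their 95% intervals reached from -1.45 to 1.34. These contrasts share arrays, so the counts are not independent of each other.

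**Figure D2:**
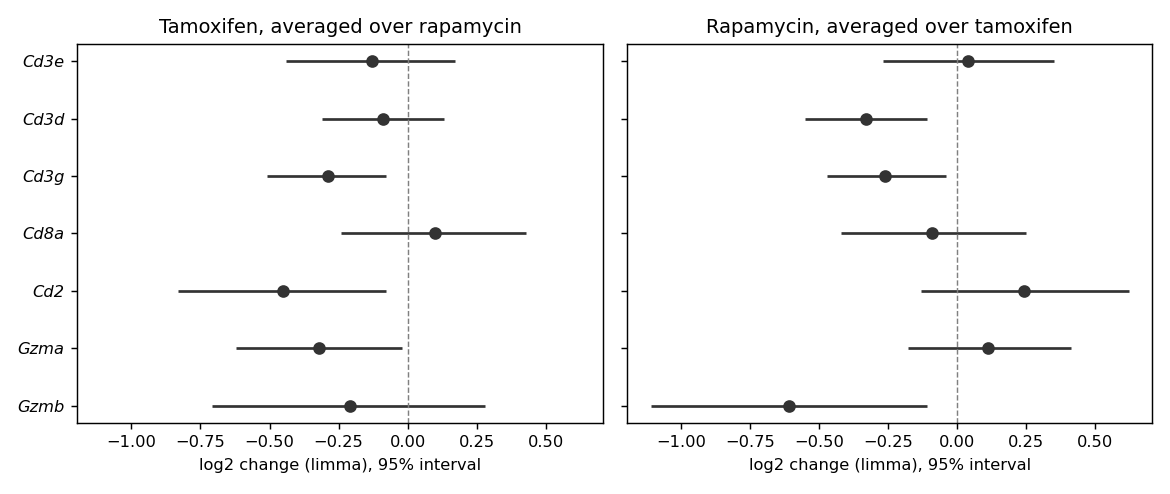
Fitted log2 differences of the 7 genes for tamoxifen averaged over rapamycin and for rapamycin averaged over tamoxifen, with 95% intervals from limma. The points lie between -0.61 and 0.24, and 0 of 7 genes passed the adjusted threshold in either contrast.

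Genes that work with the 7 were described from lists of the same pathway. Over all genes, limma called 5.85% for averaged tamoxifen and 0.0496% for averaged rapamycin. At an unadjusted p under 0.05 the shares were 17.6% and 13.1%. Among 13 measured genes of T cell receptor signalling, 0 passed limma's test in either averaged contrast (1 each at an unadjusted p under 0.05), with medians of -0.11 for tamoxifen and -0.16 for rapamycin. Ptpn22, a phosphatase that damps the receptor, had the smallest p of the list, with -0.32 ± 0.11 for rapamycin (limma adjusted p = 0.336). Among 15 genes of the T cell lineage, 0 passed (3 for tamoxifen and 5 for rapamycin at an unadjusted p under 0.05), with medians of -0.10 and -0.11. Thy1, which many stromal cells also carry, had 0.43 ± 0.12 for rapamycin (adjusted p = 0.273), and Cd4, the helper T cell co-receptor, -0.45 ± 0.15 (adjusted p = 0.335).

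The 21 measured genes of cytotoxic and natural killer cells gave 0 calls and medians of -0.09 for tamoxifen and -0.08 for rapamycin. At an unadjusted limma p under 0.05 there were 1 for tamoxifen and 3 for rapamycin, against 17.6% and 13.1% of all genes. Of the 21, 19 had a negative tamoxifen difference, as did 12034 of all 22180 genes, whose median was -0.02. Ncr1, an activating receptor of natural killer cells, had -0.30 ± 0.09 (limma adjusted p = 0.116), Prf1, the pore-forming perforin, -0.04 ± 0.10 (adjusted p = 0.917), and Nkg7, a granule protein, -0.04 ± 0.12 (adjusted p = 0.925). For rapamycin, Klrd1, which encodes the CD94 receptor, had -0.37 (adjusted p = 0.347), and Gzmf, a granzyme of the Gzmb cluster, 0.49 (adjusted p = 0.361), with 0.93 against vehicle (adjusted p = 0.401). Of 12 genes that bring or keep T cells in epithelium, 0 passed (1 for each drug at an unadjusted p under 0.05). Itgae, the integrin chain that binds E-cadherin, had -0.36 ± 0.11 for rapamycin (adjusted p = 0.32), and Il7, a survival cytokine, -0.26 for tamoxifen (adjusted p = 0.276).

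Genes of the cells that lymphocytes face were described next. Limma called 5.85% of all genes for tamoxifen averaged over rapamycin. Of 9 measured genes of MHC class I presentation, the display that CD8 cells read, 5 rose in that contrast and the median was 0.59. The first were H2-K1, a class I heavy chain (0.95 ± 0.18, limma adjusted p = 0.0164), and Nlrc5, the activator of class I genes (0.67 ± 0.12, adjusted p = 0.0124). Nlrc5 passed in all 9 fits that left out 1 array, and H2-K1 in 7, being lost without either combination array. Tap1, the peptide transporter, B2m, the light chain, and Psmb8, an immunoproteasome subunit, had adjusted p-values of 0.0489, 0.0494 and 0.0484. Tap1 passed in 1 of those 9 fits (without combination 1; range 0.62 to 1.24), B2m in 2 (without vehicle 1 or tamoxifen 1; 0.47 to 0.80) and Psmb8 in 2 (without tamoxifen 1 or combination 1; 0.45 to 0.73). Without the shared-value pair, H2-K1 passed and the other 4 did not.

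Cxcl10, a chemokine that draws activated T cells, rose by 0.72 ± 0.16 with tamoxifen (limma adjusted p = 0.0311) and was the 1 of 10 chemokine and receptor genes to pass. It passed in 3 of 9 fits without 1 array (vehicle 1, tamoxifen 1 or rapamycin 2) and ran from 0.59 to 0.84. Cd84, a receptor of the CD2 and SLAM family found on many leukocytes, rose by 0.45 ± 0.11 (adjusted p = 0.042), 1 of 9 in its list, and passed in 1 of 9 such fits (without tamoxifen 1; range 0.37 to 0.54). Serpinb6b, a protease inhibitor, rose by 0.42 ± 0.10 (adjusted p = 0.0486), 1 of 4 granzyme inhibitor genes, and passed in 0 of 9 such fits (0.35 to 0.50). Without the shared-value pair none of Cxcl10, Cd84 and Serpinb6b passed. In the main fit of averaged tamoxifen, 5.85% of all genes passed.

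Markers of other leukocytes were set beside these. Tamoxifen differences of 12 macrophage genes were all positive against vehicle, with a median of 0.58. Added to rapamycin, tamoxifen gave 8 positive and 4 negative differences and a median of 0.08. The interaction median was -0.47 (11 of 12 negative), and 0 of 12 passed. With tamoxifen averaged over rapamycin the median was 0.35 and 3 rose, where limma called 5.85% of all genes. Among the 3 were Lyz2, lysozyme, by 1.08 ± 0.18 (limma adjusted p = 0.00955) and Cd14, a receptor for bacterial lipid, by 0.83 ± 0.13 (adjusted p = 0.00584). Cd14 passed in all 9 fits without 1 array and Lyz2 in 8, being lost without combination replicate 2. The third, Cd68, a lysosomal protein, rose by 0.61 ± 0.13 (adjusted p = 0.0326) and passed in 2 of 9 such fits (without vehicle 1 or tamoxifen 1; range 0.48 to 0.73), and it did not pass without the shared-value pair, with the squamous mean or with the replicate block. Of 10 dendritic cell genes 4 had a positive and 6 a negative difference (median -0.03), and 2 rose, Bst2 by 1.48 ± 0.21 and Itgax by 1.08 ± 0.19 (adjusted p = 0.00373 and 0.0107). Itgax was lost without either combination array (range 0.93 to 1.24) and without the shared-value pair, and Bst2 passed in all 9 such fits. General leukocyte genes had 5 positive and 5 negative differences (median 0.03), and 1 of the 10, Itgb2, an integrin chain, rose by 0.45 ± 0.10 (adjusted p = 0.0291), and it passed in 2 of 9 such fits (without vehicle 2 or tamoxifen 1; range 0.39 to 0.51). B cell genes gave 0 calls of 9 in either averaged contrast (limma). At an unadjusted p under 0.05 there were 1 for tamoxifen and 3 for rapamycin, against 17.6% and 13.1% of all genes. The part of these cells in the presentation, chemokine and Cd84 values was not tested.

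**Figure D3:**
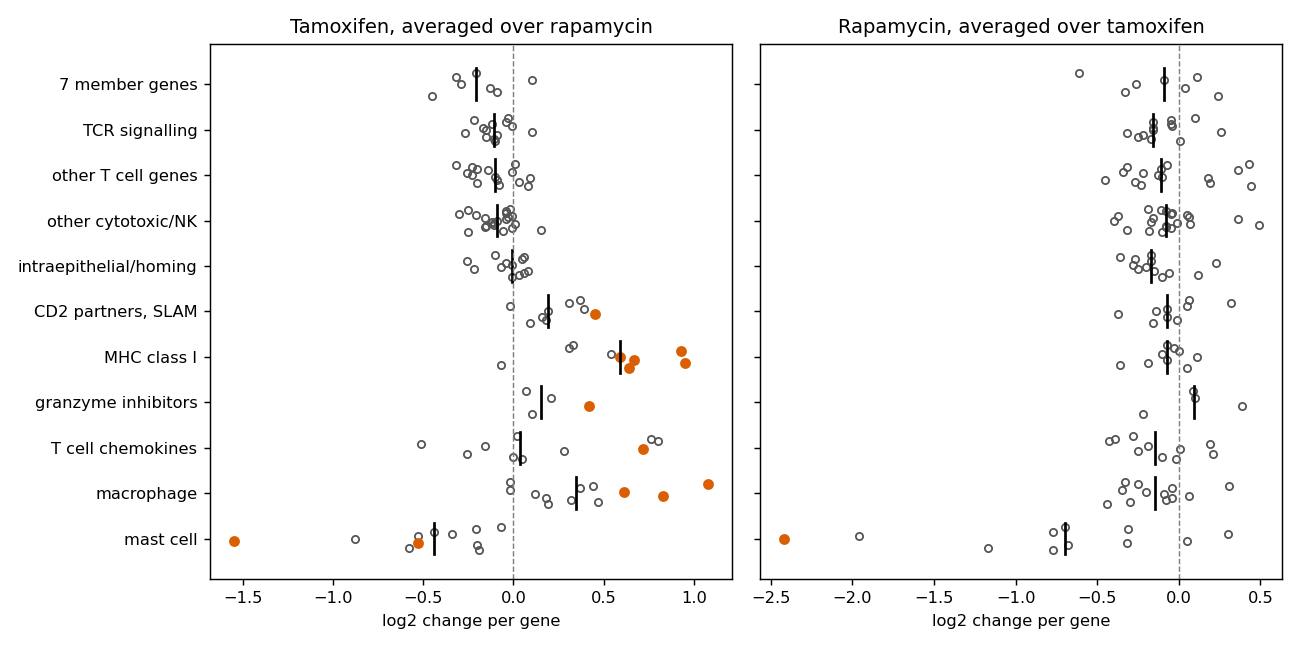
Fitted log2 differences for tamoxifen averaged over rapamycin, and for rapamycin averaged over tamoxifen, for each gene of the lists. Filled points passed the adjusted threshold, open points did not, and black ticks mark list medians. The MHC class I list, with a tamoxifen median of 0.59, has 5 filled points, while the T cell receptor, T lineage and cytotoxic lists have 0.

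The 2 cell fractions ask which of 2 cell preparations carried the genes. The mean of 6 smooth muscle genes was 4.03 in parietal and 3.75 in remaining cells, against 10.77 to 11.53 in whole stomach. For 12 macrophage genes it was 3.51 and 3.58, against 6.54 to 7.44. The scales differ, and how far such cells were missing from both fractions was not tested. A small difference between dim levels therefore does not place a gene. Each fraction was 1 array, so there is no replicate check and no test, and 2 log2 units was taken as a large difference. Markers matched the label of the parietal fraction in part: 9 of 10 parietal genes were higher there by at least 2 units, among them Atp4a by 4.55 and Atp4b by 3.86. In the remaining cells these 2 genes still stood at 8.03 and 8.74. Lower in parietal cells by 2 units were 3 of 6 chief and 2 of 5 pit cell genes. Yet the pit genes Gkn1 and Muc5ac stood at 11.73 and 8.27 there, and Pgc of chief cells at 10.67. The mix of cells in each fraction was not tested. Of all genes, 2.05% were lower in the parietal fraction by at least 2 units and 1.3% higher.

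Gzmb stood at 2.97 in parietal cells and 8.78 in the remaining cells, a difference of -5.80. The parietal level lay within the range of dim signal given by the olfactory receptor genes, so the size of this difference is limited by that dim signal. The other 6 genes differed by -0.39 to 0.46. Cd3e stood at 2.73 in parietal and 2.52 in remaining cells, Cd3d at 3.03 and 3.36, and Cd3g at 1.67 and 2.06. Cd8a stood at 3.38 and 2.93, Gzma at 2.31 and 2.19, and Cd2 at 2.47 in both, 1 of the exactly equal values. Gzmb alone of the 7 was above the 95th percentile of olfactory receptor genes in the remaining cells (3.91), and none was in parietal cells (3.96).

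**Figure D4:**
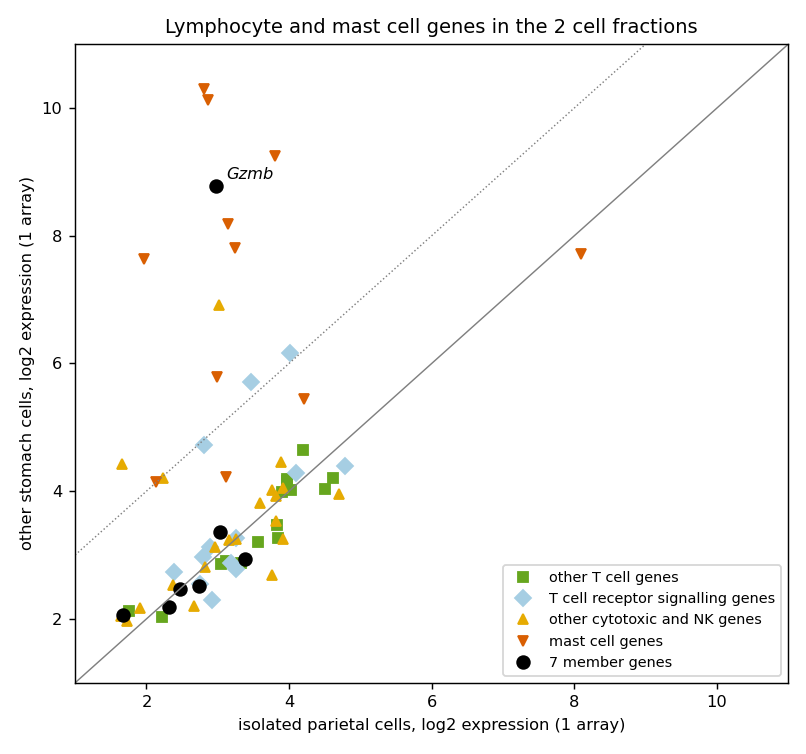
Log2 level in the remaining stomach cells against isolated parietal cells, 1 array each, for the 7 genes and for marker genes. The solid line marks equal levels and the dotted line a level 2 log2 units higher in the remaining cells. Gzmb (2.97 and 8.78) lies among the mast cell genes, and the other 6 genes lie near the line of equality.

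Among genes that define cytotoxic cells, Prf1 stood at 3.82 in parietal and 3.93 in remaining cells, Nkg7 at 3.92 and 4.05, and Ncr1 at 3.76 and 4.02. Of the 21 cytotoxic genes, 2 were lower in parietal cells by at least 2 units: Srgn, the granule proteoglycan that mast cells and other leukocytes also make (-3.90), and Gzmc (-2.75). T lineage genes had a median of 0.19 with 0 of 15 lower by 2 units. Cd4 stood at 3.33 and 2.87, and Cd5, a T cell surface receptor, at 4.50 and 4.04. Of 13 receptor signalling genes 2 were lower, the adaptors Lat (-2.15) and Lcp2 (-2.23), which mast cells also use. Of 12 genes for life in the epithelium 1 was lower, Cd244a (-2.53).

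Mast cell genes were the list with the greatest shift among those of leukocytes, with a median of -4.57 and 8 of 11 lower in parietal cells by at least 2 units. Mcpt2 stood at 2.81 and 10.30 and Mcpt1 at 2.86 and 10.13, while Kit of the same list stood at 8.09 and 7.71. Tpsab1, a tryptase, differed by -5.45, and Cpa3, the mast cell carboxypeptidase, by -4.57. Of 10 general leukocyte genes 4 were lower, Cd53 by -4.34 and Ptprc, the CD45 phosphatase, by -2.81 among them. B cell, macrophage and dendritic cell genes had medians of 0.14, 0.19 and 0.07, with 0 of 9, 0 of 12 and 0 of 10 lower by 2 units. Siglech, which marks plasmacytoid dendritic cells, stood at 3.62 in both. The part of mast cells in the Gzmb difference was not tested.

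The chromosomal cluster that ends with Gzmb held 15 genes in RefSeq order, 14 of them measured, and 7 were lower in parietal cells by at least 2 units (median -2.37). The cluster was examined after the values were seen. The genes named as chymases or mast cell proteases differed by -2.80 for Cma1, -5.52 for Cma2, -7.27 for Mcpt1, -7.48 for Mcpt2 and -5.66 for Mcpt4. The differences were -0.55 for Mcpt9 and 0.33 for Mcpt8, which is not a chymase. Ctsg, the neutrophil protease cathepsin G, differed by -0.30. The granzyme genes differed by -1.98 for Gzmd, -0.24 for Gzmg, 0.47 for Gzmn, -0.39 for Gzmf, -2.75 for Gzmc and -5.80 for Gzmb. These genes are close copies of each other, so probe signals may be shared between them and single values are uncertain.

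**Figure D5:**
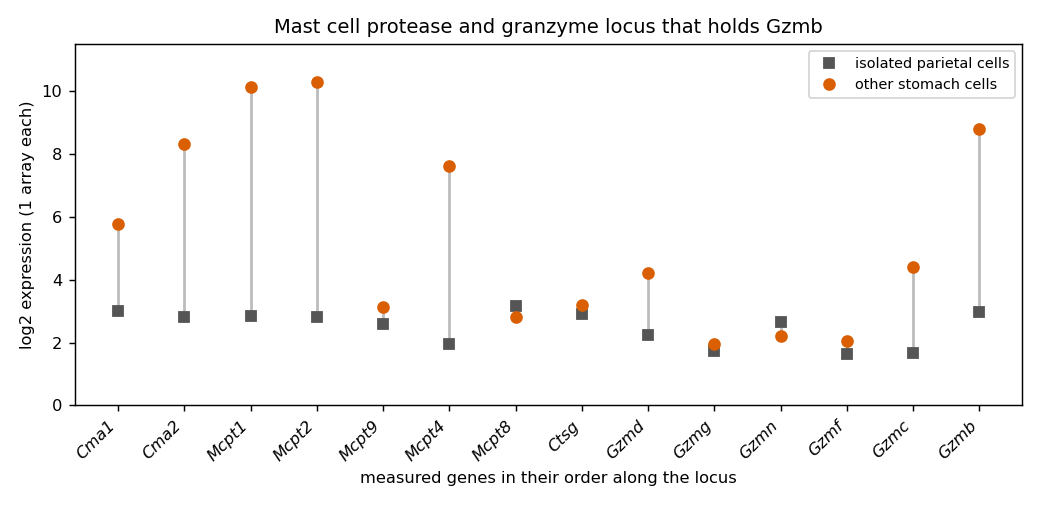
Log2 level in parietal cells and in the remaining stomach cells, 1 array each, for the measured genes of the chymase and granzyme cluster in chromosomal order. Mcpt1, Mcpt2, Cma2, Mcpt4 and Gzmb are far higher in the remaining cells, while Gzmg, Gzmn and Gzmf between them differ by less than 0.5.

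How the 7 genes varied together over the 9 whole-stomach arrays is given as a description. The 21 pairs had Pearson r from -0.51 to 0.88 with a median of 0.20, and 12 were positive. The highest were Cd2 with Gzma (0.88) and Cd3d with Gzmb (0.76). On vehicle 2 and tamoxifen 2, the pair that shares values, Cd3d stood at 4.48 on both and Gzmb at 4.50 and 4.37. These r were not computed without that pair, and the dim signals make them uncertain. By these r the genes did not rise and fall as 1 block, though signals so dim could hide a shared pattern. Of the CD3 genes, Cd3d lies between the other 2 on the chromosome. It gave 0.20 with Cd3e and 0.48 with Cd3g, while Cd3e with Cd3g gave -0.01.

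Among 4231 brighter and variable genes, those most like the mean of the 5 surface genes over the 9 arrays were 1700123K08Rik (r = 0.93, Spearman rho = 0.97), Krtap19-4, Sycn, Rflna, Slc26a6, Dio1, Fam117a and Gdf9 (r from 0.88 to 0.91). Without the 2 arrays farthest from the median of that mean, r for 1700123K08Rik was 0.90. Most like Gzma were Ints6l (r = 0.93, rho = 0.85), Armcx1 (0.92, 0.88), Wdyhv1, 9330133O14Rik and Nat8f1 (r = 0.89 each). Most like Gzmb were Ndufv2 and Derl2 (r = 0.96 each), Armcx3, Fmc1 and 2210408F21Rik (r = 0.95 each), and without vehicle 2 and tamoxifen 2 these ran from 0.77 to 0.96. Genes as dim as the 7 were not among the candidates. The arrays share treatment groups, and such likeness was picked as the highest of many.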

How the data were processed

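The authors deposited 1 table of log2 expression values for 11 arrays, made with RMA in Partek per the submitters' processing notes; no version and no setting of the method is named there or in the labels. Signal over background is unknown, and the number of arrays limits the precision. Of 41345 probe sets, 23521 had 1 gene symbol in the platform annotation, 1814 several and 16010 none listed; by gene ID, 23328 were found in the RefSeq table of GRCm38.p6. Each of 22180 genes was represented by its probe set with the highest whole-stomach mean, dim ones included.

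Group means over the 9 arrays were modelled in limma 3.58.1 (R 4.3.3; residual df 5, prior df 3.86), adjusted by Benjamini-Hochberg over all genes, and called at an adjusted p under 0.05. Errors after ± are SD for levels and SE for fitted differences. On simulated data with 200 genes changed in tamoxifen against vehicle, 46% changed by 1 log2 unit and 91.5% changed by 2 were recovered. The fractions got no test. Alternatives were other scalings, filters, covariates, blocks and left-out arrays. The members and lists were chosen with earlier results of these data known. Beside the 7 genes, list genes could be named if called, or otherwise if among the 3 of a list with the smallest p in the averaged contrasts, as could the genes of highest correlation; not all of them are named; defining markers and genes past 2 log2 units between fractions were also named.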

Additional observations from a re-analysis of the deposited data

How the results depend on the processing

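For the 49 differences of the 7 genes, 861 values were computed under 18 alternatives: 800 kept their direction, 61 turned, and 3 passed the threshold, all of Cd2. The median of the 7 genes moved in each contrast by less than 0.16, the spread between arrays, but the medians themselves were of that size. For tamoxifen against vehicle it went from -0.17 to -0.02 with the squamous covariate, -0.05 without tamoxifen replicate 1 and -0.29 without the shared-value pair. For the combination against rapamycin it went from -0.20 to -0.05 without combination replicate 1, and for averaged tamoxifen from -0.21 to -0.09 with the squamous covariate or without tamoxifen replicate 1. For averaged rapamycin it ran from -0.21 to 0.02 and for the combination against tamoxifen from -0.18 to 0.02 with 1 array left out. With the shared-value pair as a block (chosen after the data were seen), 1 of 7 genes passed for the combination against rapamycin and 1 for averaged tamoxifen; with 1 array left out, 0 to 1 passed for averaged tamoxifen. The count over all genes for tamoxifen against vehicle ran from 0 (fit to those groups only) to 1040 (shared-value pair as a block), against 381. The other counts ran from 39 to 1480 for the combination against rapamycin (543), 613 to 2779 for averaged tamoxifen (1298), 1 to 20 for rapamycin against vehicle (11), 0 to 2 for the combination against tamoxifen (0), 0 to 68 for averaged rapamycin (11) and 0 to 1 for the interaction (0). The lowest counts came without combination replicate 1 (39 and 613), without the pair (1) and with the replicate block (0), and the count of 68 came without tamoxifen replicate 1.

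Directions that turned, whose cause was not tested, were as follows. For the combination against tamoxifen, Cd2 was -0.11 with the pair as a block and -0.16 without it, and without the pair Cd3e was 0.02 and Gzmb 0.08. For averaged rapamycin, Cd2 was -0.05 with the pair as a block and -0.05 without it, Cd3e 0 and 0, Cd8a 0.06 and 0.06, and Gzma -0.07 and -0.07. Without the pair, Cd3e was -0.03 for rapamycin against vehicle and 0.05 for the interaction, and Cd3d 0.08 for the interaction. With the squamous mean as covariate, Cd8a was 0.11 for averaged rapamycin, 0.01 for rapamycin against vehicle and 0.14 for tamoxifen against vehicle. Under it Gzma was -0.04 for averaged rapamycin, Gzmb 0.15 for the combination against rapamycin and 0.07 for averaged tamoxifen, and Cd3e 0.03 for tamoxifen against vehicle. With quantile normalization Cd3e was 0.01 for tamoxifen against vehicle and Gzma 0.04 for rapamycin against vehicle.

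Whether replicate numbers pair the samples is not settled by these values. Deviations of like-numbered vehicle and tamoxifen arrays from their group means correlated at 0.56, and these groups hold the pair that shares values. Deviations of tamoxifen and rapamycin correlated at 0.41 and -0.09, and those of other groups at -0.11 to 0.04. Where both groups have 2 arrays, replicates 1 and 2 give the same value by construction. With the replicate block none of the 7 genes passed, Gzmb was -0.90 for rapamycin against vehicle (adjusted p = 0.374), Cd3d 0.07 for the interaction, Gzma 0.03 for rapamycin against vehicle and Gzmb 0.08 for the combination against rapamycin. Over all genes the replicate block gave 170, 260, 918, 8, 0, 0 and 1 calls for tamoxifen against vehicle, the combination against rapamycin, averaged tamoxifen, rapamycin against vehicle, the combination against tamoxifen, averaged rapamycin and the interaction.

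With 1 array left out, values that turned ran from -0.16 to 0.52 for Cd2 in the combination against tamoxifen and -0.46 to 0.22 in the interaction, and from -0.08 to 0.07 for Cd3d in the interaction. Cd3e ran from -0.17 to 0.05 in the combination against tamoxifen, -0.05 to 0.12 in averaged rapamycin, -0.03 to 0.31 in rapamycin against vehicle and -0.20 to 0.13 in tamoxifen against vehicle. Cd8a ran from -0.18 to 0.31 in the combination against tamoxifen, -0.21 to 0.04 in averaged rapamycin, -0.03 to 0.22 in averaged tamoxifen and -0.27 to 0.16 in tamoxifen against vehicle. Gzma ran from -0.18 to 0.16 in rapamycin against vehicle. Gzmb ran from -0.16 to 0.08 in the combination against rapamycin, -0.96 to 0.08 in the combination against tamoxifen, -0.17 to 0.86 in the interaction, -0.47 to 0.05 in averaged tamoxifen and -0.90 to 0.13 in tamoxifen against vehicle.

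The filter on dim probe sets removed all 7 genes and gave no value, and the fit to the contrasted groups only was not run for averaged contrasts and the interaction. With 2 or 3 arrays a group, the 95% intervals of the 7 genes reached up to 0.50 log2 units to either side in the averaged contrasts and up to 0.74 between single groups, the widest being those of Gzmb; for Cd3g in averaged tamoxifen the interval ran from -0.51 to -0.08.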

Other observations

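Genes of lymphoid tissue, such as chemokines and receptors of follicles, gave 0 calls of 8 in either averaged contrast (limma), with medians of 0.01 for tamoxifen and -0.02 for rapamycin. Of them 0 and 2 had an unadjusted p under 0.05, against 17.6% and 13.1% of all genes. Neutrophil genes gave 0 calls of 8, with 1 at an unadjusted p under 0.05 for each drug. Their median difference between the cell fractions was -0.60, and 2 of 8 were lower in parietal cells by at least 2 log2 units.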
